A study of Mus musculus with 8 samples.

Results

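Accessible chromatin was followed at the loci of Endod1, Plekho2, Ramp1, Gfra2 and Serpinf1, genes taken as repressed after IKZF1 induction, by ATAC-seq, an assay in which Tn5 cuts open DNA and tags its ends. The genes were chosen by earlier results on these same libraries, so the values at these 5 loci are a description and carry no test. A locus was the gene body with 50 kb on either side, and its members were the peaks of all 8 deposited lists whose summit lay inside it. Peaks that overlapped in any of the lists were merged into regions, which gave 145 regions of 174718 in all, with 24 at Endod1, 40 at Plekho2, 30 at Ramp1, 31 at Gfra2 and 20 at Serpinf1. All 8 lists held a peak in 50 of these regions, and a single list did in 37. Transcription was not measured in these libraries, so the word repressed could not be checked here.

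The cells were of B3, a pre-B line of the mouse, and carried Ikaros-ERt2, a fusion of Ikaros (IKZF1) with a ligand-binding domain of the estrogen receptor that enters the nucleus when 4-hydroxytamoxifen (4-OHT) is added. Untreated cells (0 h) were set against cells that had 500 nM of 4-OHT for 30 min, for 1 h and for 2 h. Each of the 4 time points had 2 replicates. No label says that replicates were separate cultures, so their spread may be technical, and with 2 libraries against 2 an exact permutation test of a single value cannot go below a two-sided p of 0.333. The 0 h cells had no treatment, so 4-OHT and nuclear Ikaros cannot be told apart. All libraries came from 1 cell line, and the transgene was present in every group, 0 h included. The lists held 85903 to 103897 peaks, the caller's background, which stands for depth, was 0.26 to 0.405 fragments per base, and summits held 11 to 14 fragments in the median. The line was checked against markers by peaks within 1 kb of a start site. Of 8 pre-B or B cell markers 5 had a peak in all 8 lists. Of 5 myeloid markers 4 had none, and of 3 erythroid markers 2 had none. Of 5 T cell markers, Cd5 had a peak in all 8 lists, Cd3g in 7 and Cd4 in 4, while Cd3e and Cd8a had none.

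IKZF1 is a zinc finger protein of lymphocyte progenitors that binds DNA through a core of GGGAA or a close relative and recruits corepressors such as NuRD. Where a regulatory element is accessible, nucleosomes are displaced and short fragments pile up into a peak, and where accessibility is lost the peak shrinks or drops under the caller's threshold. The genes have unrelated products. Gfra2 encodes a co-receptor for the growth factor neurturin, Ramp1 a membrane protein that forms the receptor for calcitonin gene-related peptide with a partner, Serpinf1 the secreted factor PEDF, Plekho2 a pleckstrin homology domain protein and Endod1 a protein with an endonuclease domain. In GRCm38 with the GENCODE M21 annotation, Endod1 is at chr9:14353990-14381507 and Plekho2 at chr9:65552698-65580040, both on the minus strand, Ramp1 at chr1:91179822-91225196 and Gfra2 at chr14:70890120-70979838 on the plus strand, and Serpinf1 at chr11:75409769-75422701 on the minus strand. Of other protein-coding genes, Sesn3 lies inside the Endod1 window, Ankdd1a, Pif1 and Rbpms2 in that of Plekho2, Rbm44 and Ube2f in that of Ramp1, and Smyd4, Serpinf2, Wdr81 and Tlcd2 in that of Serpinf1, so a region here need not belong to the named gene.

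The summit and 100 bases on either side are shown for the region of each locus with the largest fall in mean percentile from 0 h to 2 h, so that the core words can be read where accessibility was lowest against 0 h. All are plus strand, 5′ to 3′, GRCm38, and the capitals mark GGAA and TTCC, with GGGA and TCCC, the core words on either strand. Overlapping words were each counted.
Endod1, 1.0 kb downstream of the Endod1 start site, chr9:14380379-14380579: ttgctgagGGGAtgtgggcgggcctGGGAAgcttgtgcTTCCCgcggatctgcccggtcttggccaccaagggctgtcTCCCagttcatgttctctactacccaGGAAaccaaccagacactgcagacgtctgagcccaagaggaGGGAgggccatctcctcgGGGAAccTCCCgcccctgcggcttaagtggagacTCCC
Plekho2, 4.7 kb downstream of the Plekho2 start site, chr9:65575217-65575417: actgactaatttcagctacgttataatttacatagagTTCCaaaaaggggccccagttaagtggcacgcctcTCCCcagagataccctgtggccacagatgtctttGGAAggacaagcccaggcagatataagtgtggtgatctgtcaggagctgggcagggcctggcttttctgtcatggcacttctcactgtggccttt
Ramp1, 61.7 kb downstream of the Ramp1 start site, chr1:91241374-91241574: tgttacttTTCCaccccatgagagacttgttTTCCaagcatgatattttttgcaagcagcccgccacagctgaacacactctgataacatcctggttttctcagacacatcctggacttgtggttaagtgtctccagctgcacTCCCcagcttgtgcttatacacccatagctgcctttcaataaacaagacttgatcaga
Gfra2, 42.5 kb upstream of the Gfra2 start site, chr14:70847476-70847676: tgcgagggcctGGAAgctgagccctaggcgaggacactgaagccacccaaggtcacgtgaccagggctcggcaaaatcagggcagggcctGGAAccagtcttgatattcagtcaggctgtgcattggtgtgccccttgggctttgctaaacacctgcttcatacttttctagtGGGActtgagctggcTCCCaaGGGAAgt
Serpinf1, 7.3 kb downstream of the Serpinf1 start site, chr11:75415302-75415502: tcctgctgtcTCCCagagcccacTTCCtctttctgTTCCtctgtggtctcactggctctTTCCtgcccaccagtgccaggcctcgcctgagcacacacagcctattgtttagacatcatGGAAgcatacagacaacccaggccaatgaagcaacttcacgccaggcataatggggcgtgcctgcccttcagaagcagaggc
The Endod1 stretch held 12 core words, that of Gfra2 6, that of Serpinf1 5, and those of Plekho2 and Ramp1 3 each.

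The same window is shown for the region of each locus with the largest rise in mean percentile, which the account that follows sets against the first.
Endod1, 16.4 kb downstream of the Endod1 start site, chr9:14365016-14365216: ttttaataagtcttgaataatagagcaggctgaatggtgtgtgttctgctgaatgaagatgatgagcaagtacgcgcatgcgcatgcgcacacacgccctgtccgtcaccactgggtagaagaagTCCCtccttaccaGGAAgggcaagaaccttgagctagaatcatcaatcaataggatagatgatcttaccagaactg
Plekho2, 5.1 kb downstream of the Plekho2 start site, chr9:65574829-65575029: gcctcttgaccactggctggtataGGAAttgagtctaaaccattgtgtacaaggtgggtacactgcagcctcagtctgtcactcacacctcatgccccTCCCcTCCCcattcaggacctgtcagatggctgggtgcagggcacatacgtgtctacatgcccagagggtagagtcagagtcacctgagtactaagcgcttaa
Ramp1, 61.1 kb downstream of the Ramp1 start site, chr1:91240785-91240985: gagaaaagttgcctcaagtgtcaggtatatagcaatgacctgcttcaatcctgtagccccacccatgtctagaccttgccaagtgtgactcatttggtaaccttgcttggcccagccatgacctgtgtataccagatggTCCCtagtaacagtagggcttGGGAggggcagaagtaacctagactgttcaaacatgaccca
Gfra2, 4.2 kb downstream of the Gfra2 start site, chr14:70894224-70894424: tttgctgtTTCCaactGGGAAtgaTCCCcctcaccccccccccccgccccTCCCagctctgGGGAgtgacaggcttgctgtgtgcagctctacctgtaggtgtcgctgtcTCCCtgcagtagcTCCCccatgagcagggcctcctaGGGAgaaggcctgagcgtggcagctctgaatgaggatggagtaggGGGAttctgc
Serpinf1, 20.3 kb downstream of the Serpinf1 start site, chr11:75402320-75402520: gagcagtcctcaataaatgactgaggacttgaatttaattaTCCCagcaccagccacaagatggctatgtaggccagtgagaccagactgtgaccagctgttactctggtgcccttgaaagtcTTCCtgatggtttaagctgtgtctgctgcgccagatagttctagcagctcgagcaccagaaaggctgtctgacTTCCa
These held 2 core words at Endod1, 3 at Plekho2, 2 at Ramp1, 10 at Gfra2 and 3 at Serpinf1. At Plekho2 the falling and the rising summit held the same number, and at Gfra2 the rising summit held more than the falling one.

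Strength was read in 2 ways. The first was the percentile of a region's fold over local background among all peaks of its list, where 100 is the strongest and an absent peak has none. The second was the number of fragments at the summit, recovered from the deposited fold and p-value, over the background of the library. A region was called lost at 2 h if it had a peak in both lists from untreated cells and in none of 2 h, and gained if the opposite held. It was called falling or rising if it had a peak in all 4 of those lists and both 2 h percentiles were below, or above, both at 0 h. By this rule 14 regions of the 5 loci were lost and 16 were falling, 7 were gained and 21 were rising, and 87 were neither, namely 18 present in each of the 4 lists with overlapping percentiles and 69 that some of those lists lacked. Regions such as that 42.5 kb upstream of Gfra2, which 1 list of 2 h still held, fell under neither name however large their fall.

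Falling and rising regions lay side by side in every locus. Endod1 had 2 lost, 2 falling, 1 gained and 4 rising regions, Plekho2 3, 7, 2 and 7, Ramp1 3, 3, 1 and 6, Gfra2 4, 1, 1 and 2, and Serpinf1 2, 3, 2 and 2, in the same order. Of regions in both 0 h lists, 14 of 79 (17.7%) were lost, beside 16.6% of all such regions, and of regions in both 2 h lists 7 of 70 (10.0%) were gained, beside 20.5% of all. Among regions in all 4 lists, 16 of 55 (29.1%) were falling, beside 24.6% of all, and 21 of 55 (38.2%) were rising, beside 39.7% of all. Earlier, 7 of 79 (8.86%) were lost and 5 of 77 (6.49%) gained at 30 min, beside 10.9% and 10.3% of all, and 9 of 79 (11.4%) were lost and 5 of 71 (7.04%) gained at 1 h, beside 14.6% and 17.0%. Since the genes were chosen on these contrasts, nothing is read from the distance between those shares.

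**Figure D1:**
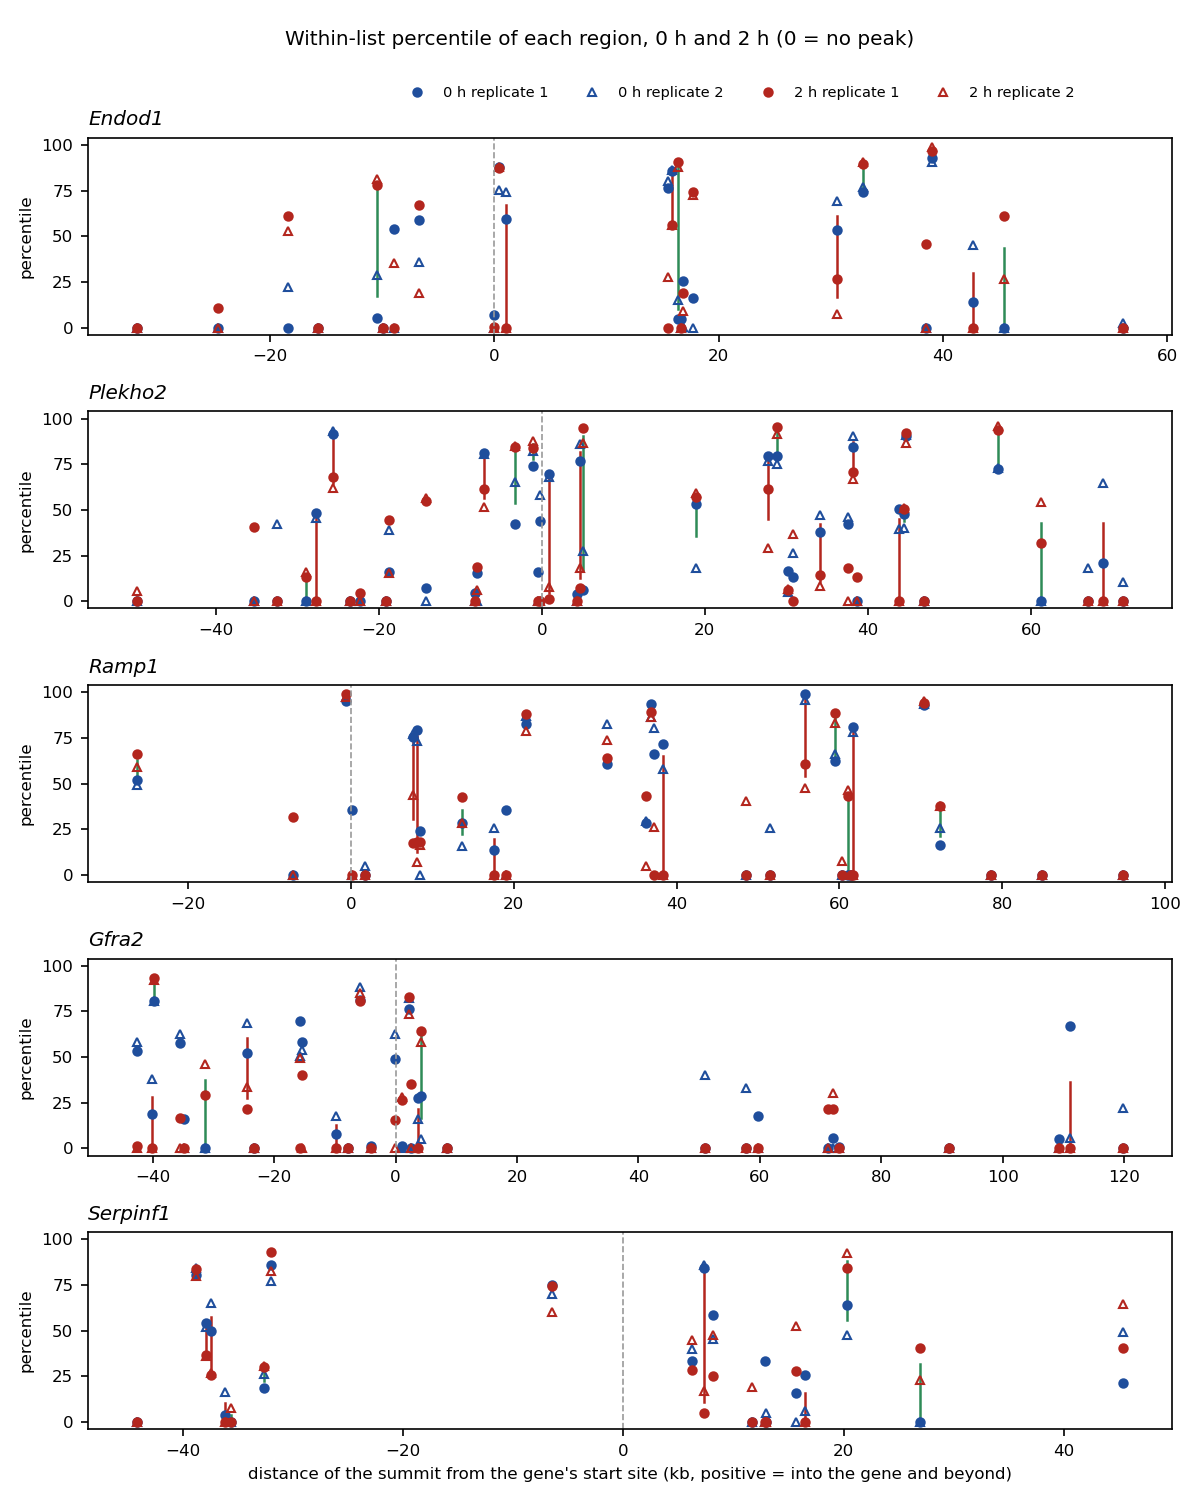
Percentile of each region within its list (vertical axis, 0 to 100, with 0 standing for no peak) against the distance of its summit from the start site of the gene in kb (horizontal axis), for both 0 h libraries (blue) and both 2 h libraries (red). Vertical lines join the means of regions that were lost or falling (red) and of those gained or rising (green). Both kinds of line occur in all 5 loci, close together 16 kb into Endod1 and 5 kb into Plekho2.

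The number of peaks in the loci, by contrast with the lists as a whole, was lower after 1 h and 2 h of 4-OHT. After 30 min it overlapped that of 0 h. As the genes were chosen on these lists, the counts are a description. The 5 loci held 101 and 90 peaks at 0 h, 99 and 87 after 30 min, 86 and 83 after 1 h and 85 and 80 after 2 h, while the lists grew from 93936 and 85903 peaks at 0 h to 103897 and 99060 after 2 h. Per 10000 peaks of the list that was 10.8 and 10.5 before 4-OHT, 9.91 and 9.92 after 30 min, 8.28 and 8.88 after 1 h and 8.18 and 8.08 after 2 h. Both 2 h values lay under both 0 h values. Most of the difference came from the Gfra2 locus, which had 22 and 17 peaks at 0 h and 14 and 9 after 2 h. Serpinf1 had 15 and 14 before 4-OHT and 14 and 15 after 2 h, and Endod1 16 and 14 before 4-OHT and 15 and 15 after 2 h, which overlapped. Peaks of one time in a list do not count cells: fewer open cells and less open chromatin in each cell cannot be told apart in bulk libraries.

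Inside the gene body of Endod1, neighbouring regions went opposite ways. A region 15.5 kb into the gene, in an intron, had percentiles of 76.4 and 80.4 before 4-OHT, 64.2 and 57.5 after 30 min, 62.2 and 30.1 after 1 h and, in the second library alone, 27.6 after 2 h. Its fragments were 87 and 69 before 4-OHT and 15 in the 2 h library that kept the peak. An adjoining region 15.8 kb in was also lower, with 85.6 and 86.4 before 4-OHT and 56.1 and 56.4 after 2 h, or 112 and 82 fragments against 27 and 23. A region 16.4 kb in, still in the intron, ran the other way, with percentiles of 4.7 and 15.4 before 4-OHT, 79.1 and 78.2 after 30 min, 73.8 and 82.1 after 1 h and 90.7 and 88.2 after 2 h. Its fragments were 25 and 21 before 4-OHT, 53 and 42 after 30 min, 36 and 43 after 1 h and 63 and 49 after 2 h. Every library after 4-OHT was above both 0 h libraries on either scale. The mean percentile moved from 10.0 ± 7.59 to 89.5 ± 1.79 (SD, n = 2), the widest rise on that scale in the 5 loci. Fragments over the library background changed by 1.24 on the log2 scale from 0 h to 2 h. Larger rises were 1.90 at the region 10.5 kb upstream of Endod1 and 1.57 at that 5.1 kb into Plekho2. The local background, which divides the fold, changed by -1.29 on the log2 scale at the region 16.4 kb in. Its percentile rise therefore combined more fragments with a lower local background. The nearest falling or lost region was 550 bases away.

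Within 1 kb of the Endod1 start site 1 region was lost and none was gained or rising. The promoter peak 0.4 kb into the gene, in its UTR, had percentiles of 88.1 and 75.4 before 4-OHT and 87.4 and 88.2 after 2 h, with 83 and 37 fragments at 0 h and 68 and 54 after 2 h, so the groups overlapped. A neighbour 1.0 kb into the gene, whose summit is the first sequence shown, was at 59.6 and 74.5 before 4-OHT, with 41 and 36 fragments, and at 37.9 in 1 library after 30 min. No list of 1 h or 2 h held it. Away from the gene, the region 10.5 kb upstream had 5.5 and 29.1 before 4-OHT and 78.4 and 81.7 after 2 h, on 5 and 6 fragments at 0 h and 20 and 22 after 2 h. The region 30.5 kb from the start site, beyond the gene, had 53.3 and 69.4 before 4-OHT and 26.4 and 7.2 after 2 h, on 16 and 16 fragments against 8 and 6.

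Plekho2 had the largest number of regions, 40, and of changed ones, with 10 lost or falling and 9 gained or rising. Over all 174718 regions these were 24344 and 36806. Regions near its start site differed, and that 0.9 kb into the gene was at its low level by 30 min. The region 0.9 kb into the gene, in an intron, had percentiles of 69.9 and 68.0 before 4-OHT, 5.5 and 7.5 after 30 min, 18.9 and 1.3 after 1 h and 1.1 and 7.8 after 2 h. Its fragments were 65 and 45 before 4-OHT, 17 and 17 after 30 min, 21 and 13 after 1 h and 15 and 16 after 2 h. All 6 later libraries were below both 0 h libraries. The region 0.3 kb upstream went from 44.2 and 58.1 before 4-OHT to 4.8 and 15.7 after 30 min and was lower still later. It was at 1.6 and 0.8 after 1 h and, after 2 h, at 0.1 in 1 library with no peak in the other. The promoter peak 1.1 kb upstream was among the rising regions by percentile. It was at 74.0 and 82.3 before 4-OHT, 89.6 and 88.5 after 30 min and 89.3 and 90.2 after 1 h. After 2 h it was at 84.2 and 87.7, on 58 and 55 fragments against 54 and 48 at 0 h.

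An intron of Plekho2 held a pair that ran in opposite directions, with summits 388 bases apart, which was the closest in the 5 loci. The region 4.7 kb into the gene was lowest at the last time, with percentiles of 76.8 and 86.4 before 4-OHT, 78.1 and 64.1 after 30 min, 25.3 and 46.7 after 1 h and 6.9 and 17.9 after 2 h. Its fragments were 56 and 53 before 4-OHT, 35 and 23 after 30 min, 13 and 17 after 1 h and 11 and 11 after 2 h. On the percentile scale its 30 min libraries overlapped those of 0 h, and on the fragment scale they did not. The region 5.1 kb in had percentiles of 6.1 and 27.6 before 4-OHT, 71.5 and 72.3 after 30 min, 86.4 and 75.3 after 1 h and 94.7 and 86.6 after 2 h, with 15 and 15 fragments at 0 h and 58 and 36 after 2 h. The means moved from 81.6 ± 6.77 to 12.4 ± 7.78 in the first and from 16.8 ± 15.2 to 90.7 ± 5.76 (SD, n = 2) in the second. The local background was similar under both, at 8.5 and 9.1 times the library background at 0 h under the first and 7.5 and 8.1 under the second. After 2 h it was lower under both, at 5.28 and 4.31 times under the first and 4.63 and 3.88 times under the second.

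Ramp1 kept its promoter peak at every time. This region, 0.6 kb upstream of the start site, was the strongest of the locus, with percentiles of 95.3 and 97.5 before 4-OHT, 98.1 and 95.6 after 30 min, 98.1 and 97.5 after 1 h and 99.1 and 97.6 after 2 h. Its fragments were 65 and 52 before 4-OHT and 74 and 60 after 2 h. By percentile it was among the rising regions by a margin of 0.1 percentile points between the nearest libraries. Inside the gene, 2 intronic regions 7.7 and 8.1 kb from the start site were lower. The second had percentiles of 79.2 and 73.2 before 4-OHT, 35.5 in 1 library after 30 min, 13.4 and 27.5 after 1 h and 18.0 and 6.9 after 2 h, on 35 and 21 fragments at 0 h and 7 and 6 after 2 h.

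Beyond the 3′ end of Ramp1 a cluster of regions was split. The region 55.8 kb from the start site, among the strongest of all at 0 h with percentiles of 99.1 and 95.6, was at 76.6 and 78.9 after 30 min, 82.6 and 70.7 after 1 h and 60.5 and 47.8 after 2 h. Its fragments were 73 and 47 before 4-OHT, 24 and 24 after 30 min, 28 and 19 after 1 h and 16 and 12 after 2 h. The region 61.7 kb from the start site was at 81.2 and 78.4 before 4-OHT, on 32 and 24 fragments, and was lost at 2 h, with percentiles of 40.7 after 30 min and 14.1 after 1 h in the second library of each time alone. Between these, the region 61.1 kb from the start site had no peak at 0 h and percentiles of 45.7 and 59.5 after 30 min, 72.0 and 37.2 after 1 h and 43.0 and 46.3 after 2 h. The nearest falling or lost summit was 589 bases from it. At 59.5 kb a region went from percentiles of 62.4 and 66.3 to 88.9 and 83.4, on 27 and 23 fragments at 0 h and 38 and 27 after 2 h.

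At Gfra2 the strongest region went opposite ways on the 2 scales. This region lay 39.7 kb upstream of the start site, with no other protein-coding gene in the window. Its percentile was 80.7 and 80.8 before 4-OHT, 90.5 and 91.0 after 30 min, 87.4 and 88.5 after 1 h and 93.1 and 92.3 after 2 h, so every later library was above both 0 h libraries. Its fragments were 134 and 94 before 4-OHT, 87 and 77 after 30 min, 57 and 55 after 1 h and 61 and 48 after 2 h, and over the library background the change from 0 h to 2 h was -1.09 on the log2 scale. The local background that divides the fold was 21.2 and 22.7 times that of the library at 0 h, 9.12 and 10.1 times after 30 min, 6.59 and 6.97 times after 1 h and 5.60 and 4.58 times after 2 h. The summit therefore held fewer fragments while it stood out more from its surroundings.

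On both sides of it, regions were lower on either scale. The region 42.5 kb upstream was at 53.4 and 58.2 before 4-OHT, 4.2 and 18.8 after 30 min, 15.4 in 1 library after 1 h and 1.2 in 1 library after 2 h, and its fragments were 55 and 43 before 4-OHT and 8 where it was still called after 2 h. The region 35.5 kb upstream was at 57.7 and 62.4 before 4-OHT and at 16.3 in 1 library after 2 h, with 65 and 51 fragments at 0 h and 13 after 2 h. Closer to the gene, 31.4 kb upstream, a gained region had no peak at 0 h and percentiles of 29.2 and 46.2 after 2 h, on 9 and 10 fragments. A region on the Gfra2 start site was at 49.1 and 62.8 before 4-OHT, 7.9 and 21.0 after 30 min and 15.2 in 1 library after 2 h. Its neighbour 1.0 kb into the gene, with a peak in 6 lists, was 26.6 points higher in mean percentile after 2 h. At another Gfra2 start site, 50.9 kb in, a region with a peak in 2 lists changed by -20.1 points. Both changes take an absent peak as 0. In an intron 4.2 kb from the start site, a region went by percentile from 28.6 and 4.9 before 4-OHT to 64.2 and 58.4 after 2 h. Its fragments were 27 and 12 before 4-OHT and 31 and 23 after 2 h, which overlapped, although over the library background the 2 h values of 92.0 and 72.6 were above the 0 h values of 69.4 and 46.2.

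Serpinf1 had no peak within 1 kb of its start site in any list. Its strongest fall was in an intron 7.3 kb into the gene, where the percentile was 84.1 and 86.1 before 4-OHT, 38.8 and 45.9 after 30 min, 40.0 in 1 library after 1 h and 4.9 and 17.0 after 2 h. The fragments were 63 and 50 before 4-OHT, 13 and 13 after 30 min, 13 in 1 library after 1 h and 7 and 8 after 2 h. Relative to the library background the change from 0 h to 2 h was -2.95 on the log2 scale, which was the steepest fall of the 55 regions that were in each of the 4 lists. A region 20.3 kb from the start site, in an intron of Smyd4, had 64.2 and 47.8 before 4-OHT, 87.1 and 74.4 after 30 min, 84.6 and 85.9 after 1 h and 84.3 and 92.4 after 2 h, on 14 and 9 fragments at 0 h and 22 and 29 after 2 h. Far upstream, lost, falling, gained and rising regions lay between 32.7 and 38.0 kb from the start site. At 37.5 kb upstream, near Mir22hg, the percentile was 49.9 and 65.2 before 4-OHT and 25.6 and 26.5 after 2 h, and the strongest region, 32.0 kb upstream near the Wdr81 start site, was at 85.8 and 77.4 before 4-OHT and 92.9 and 82.9 after 2 h, which overlapped.

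**Figure D2:**
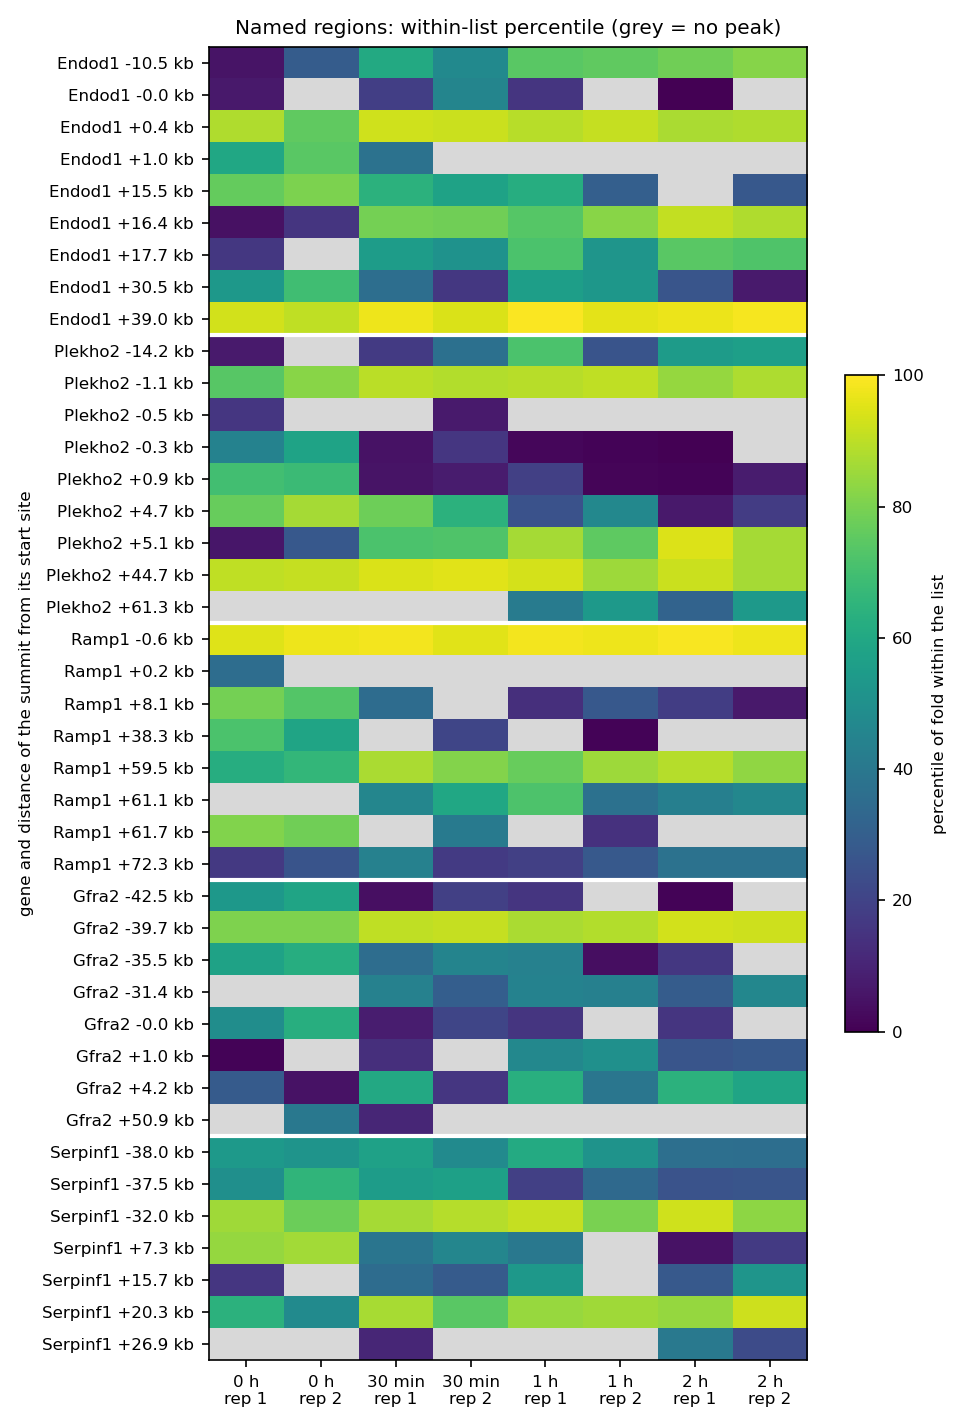
Percentile within the list (colour, 0 to 100, grey where no peak was called) of the 41 named regions (rows, by gene and distance of the summit from the start site in kb) in the 8 libraries (columns). The rows Endod1 +16.4 and Plekho2 +5.1 go from dark to bright after 30 min, and the rows Plekho2 +0.9 and Serpinf1 +7.3 from bright to dark.

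The order in time was seen in the medians as well. Over the 30 lost or falling regions, with an absent peak taken as 0, the median percentile was 56.9 and 66.6 in the 0 h libraries, 31.5 and 17.1 after 30 min, 22.1 and 8.38 after 1 h and 2.99 and 7.03 after 2 h. Over the 28 gained or rising regions it was 35.6 and 28.3 before 4-OHT, 66.7 and 55.3 after 30 min, 72.9 and 64.5 after 1 h and 72.4 and 70.6 after 2 h. Both 30 min libraries lay outside the 0 h range in either set. These sets were picked on their 0 h and 2 h values, so those ends of the course are fixed by the choice. The 30 min and 1 h libraries took no part in it. Still, regions picked as high or low in both 0 h libraries tend to lie nearer the middle in any other library. Part of the 30 min step may therefore come from the choice, and how much was not tested. The same medians over all 24344 lost or falling regions were 64.8 and 61.9 before 4-OHT, 41.0 and 34.2 after 30 min, 26.1 and 18.2 after 1 h and 7.95 and 7.77 after 2 h. Over all 36806 gained or rising regions they were 21.2 and 18.5 before 4-OHT and 50.6 and 42.7 after 30 min. They were 59.6 and 54.6 after 1 h and 63.5 and 62.6 after 2 h.

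The highest local background of a locus was lower after 4-OHT at Endod1, Plekho2, Ramp1 and Gfra2. With no control library the caller takes it from the fragments of the same library in a wider stretch around the peak, so it is a measure of the neighbourhood and not of the summit alone. At Gfra2, 12 and 10 regions stood in a local background of at least 10 times that of the library at 0 h, 0 and 1 after 30 min, and 0 in each library of 1 h and 2 h. At Plekho2 there were 8 and 8 such regions at 0 h, 0 and 1 after 30 min, 0 and 0 after 1 h and 1 and 0 after 2 h. Endod1 had 6 and 4 before 4-OHT and 0 in each of the later 6 libraries. Ramp1 had 0 and 1 before 4-OHT and 0 later, and its highest value was 8.79 and 10.4 before 4-OHT and 5.62 and 5.20 after 2 h. Serpinf1 was the exception, with 4 and 4 before 4-OHT and 4 and 4 after 2 h. Those regions of Serpinf1 lay around Mir22hg, while near its own intronic region the local background went from 7.65 and 8.43 times at 0 h to 2.99 and 3.10 times after 30 min and 2.90 and 2.56 times after 2 h.

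In all 4 lists of 0 h and 2 h, the local background over that of the library was lower in both 2 h libraries at 36 of 55 regions (65.5%), beside 26.1% of all regions, and higher at 4 (7.27%), beside 38.8%. By locus it was lower at 5 of 9 regions at Endod1, 12 of 17 at Plekho2, 10 of 13 at Ramp1, 4 of 5 at Gfra2 and 5 of 11 at Serpinf1. It was higher at 3 of 9 at Endod1 and 1 of 17 at Plekho2, and at 0 regions of the other loci. The median over the peaks of Endod1 was 9.19 and 2.46 times the library background at 0 h and 2.66 and 2.55 times after 2 h, which overlapped. Neighbouring regions share that stretch, so these are not independent. The median change from 0 h to 2 h was -0.42 on the log2 scale at the 5 loci and 0.03 over all regions. The same genes were chosen as repressed, and the share is given as a description.

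**Figure D3:**
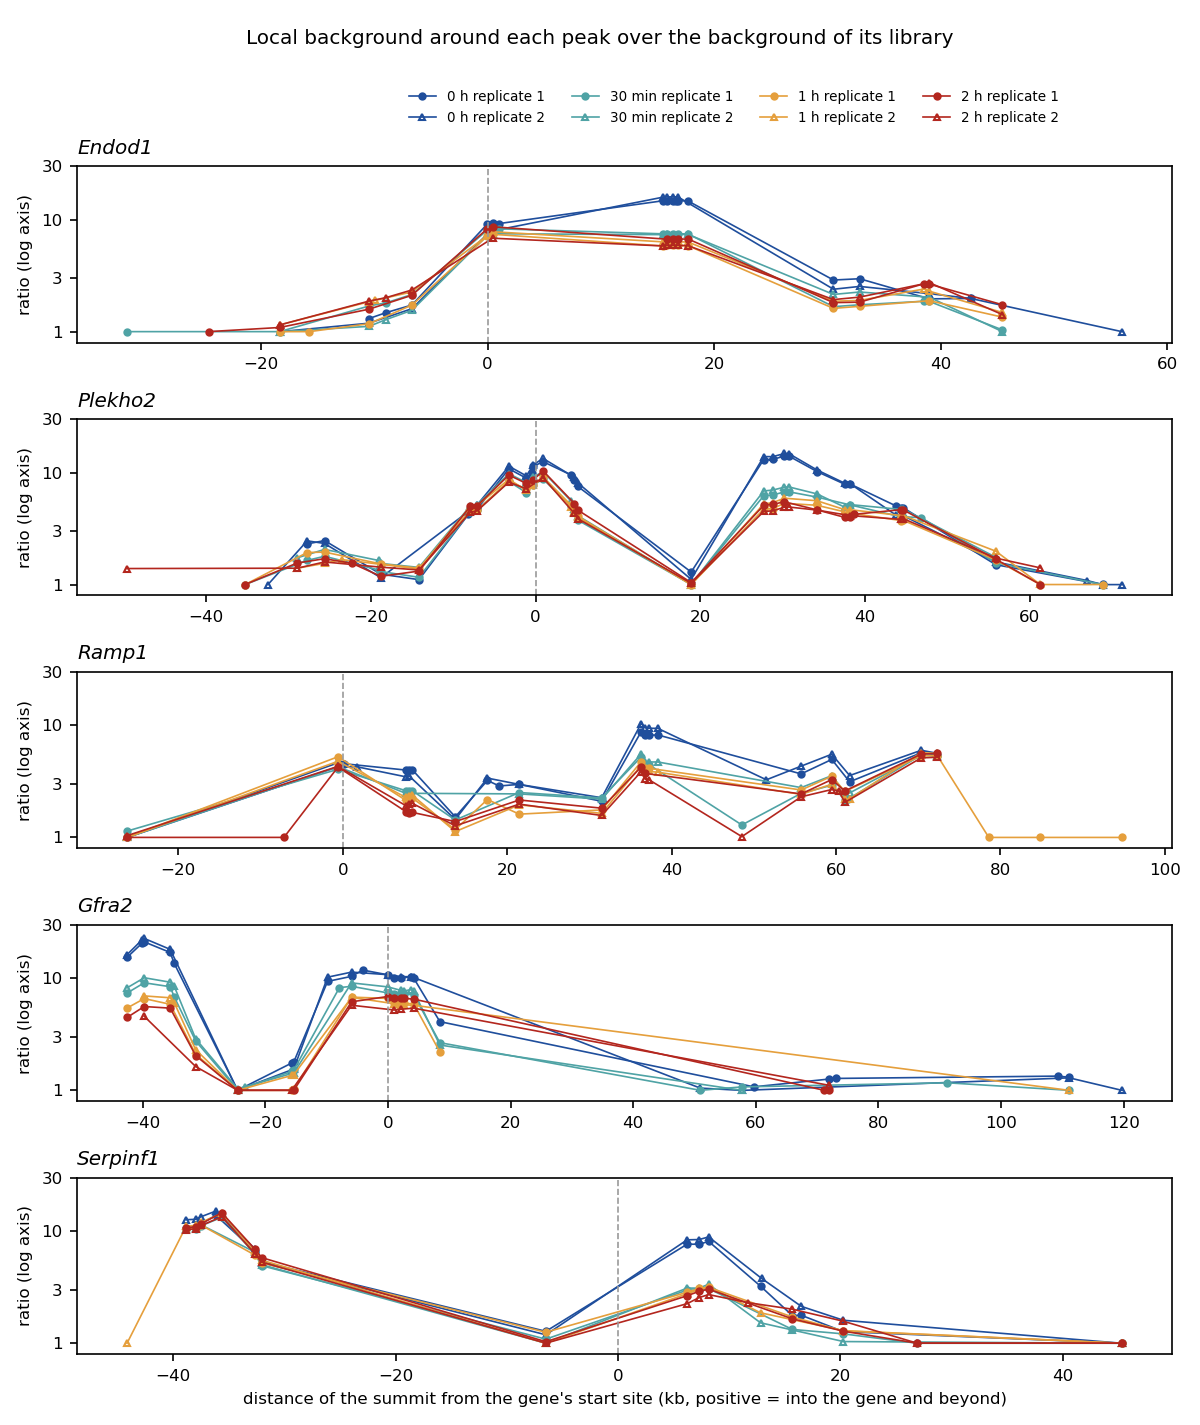
Local background around each peak over the background of its library (vertical log axis, ratio) against the distance of the summit from the start site of the gene in kb, by library and time, with lines that join neighbouring peaks of a library. The 0 h lines (blue) stand above all others 16 kb into Endod1 and 30 kb downstream of the Plekho2 start site. They do so too 40 kb upstream of Gfra2 and 7 kb into Serpinf1, and meet the others around the Ramp1 start site.

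Read by fragments over the library background, more regions were lower than by percentile. Of the 55 regions in all 4 lists, 26 (47.3%) had fewer fragments over background in both 2 h libraries than in both at 0 h, beside 24.4% of all regions, and 14 (25.5%) had more, beside 41.9%. These shares are a description, as the genes were chosen on these libraries. All 16 falling regions were among the 26. Of the 21 rising regions 14 also had more fragments, and 2 had fewer, namely that 39.7 kb upstream of Gfra2 and that 28.8 kb from the Plekho2 start site. Over all regions in 4 lists, 0.86% of the rising ones had fewer fragments. The median change of log2 fragments over background was -0.27 at the 5 loci and 0.21 over all, and by locus it was 0.20 at Endod1, -0.34 at Plekho2, -0.27 at Ramp1, -0.72 at Gfra2 and -0.24 at Serpinf1. The median change of percentile was -0.65 points at the loci and 3.55 over all. After each library was centred on its own median, 31 regions were lower and 11 higher. No share over all regions is given for the centred values, so nothing is read from these counts.

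**Figure D4:**
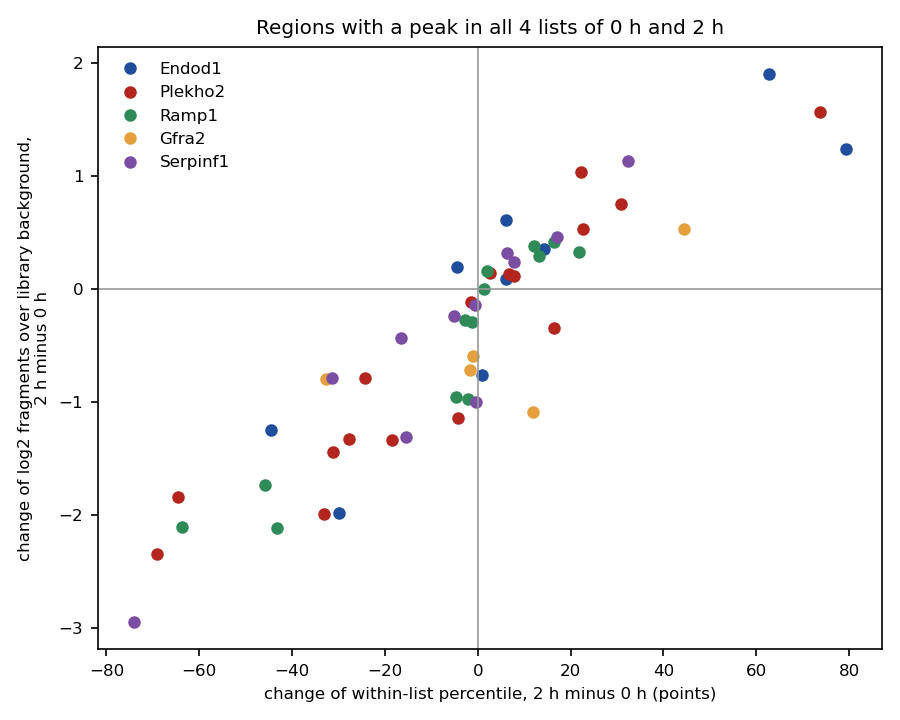
Change from 0 h to 2 h of the log2 fragments over library background (vertical axis) against the change of the within-list percentile (horizontal axis, points) for the 55 regions that were in each of the 4 lists, coloured by locus; each point is a difference of means over 2 libraries. Most points lie along the diagonal, and the Gfra2 region at 12.0 points and -1.09 lies in the quadrant of higher percentile and fewer fragments.

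Where all 8 lists held a peak, ranks by fold were fitted with limma over the 4 time points at a Benjamini-Hochberg adjusted p of 0.01. Of 50 regions of the loci that could be tested, 7 (14.0%) were called lower after 2 h, beside 4.71% of the 47875 tested, and 3 (6.0%) were called higher, beside 2.28%. The genes were chosen on these libraries, so nothing is read from the distance between those shares. The lower ones were those 15.8 and 30.5 kb from the Endod1 start site, those 25.6 kb upstream of Plekho2 and 0.9 and 4.7 kb inside it, and those 7.7 and 55.8 kb from the Ramp1 start site. The first 3 of these, both at Endod1 and that upstream of Plekho2, were not called in a fit with the replicate as a block or with ranks among all peaks of a list, and the latter also lost that 7.7 kb from the Ramp1 start site. Those called higher lay 10.5 kb upstream of Endod1 and 16.4 kb into it, and 5.1 kb into Plekho2. No region of Gfra2 or Serpinf1 was called by limma on ranks, although a trended robust prior on the same ranks called 1 Serpinf1 region higher. At an unadjusted p under 0.05, 1 of 5 Gfra2 regions was lower and 2 were higher. Of 10 Serpinf1 regions, 2 were lower and 1 was higher. The share of all regions at that cut is not given, so nothing is read from these counts. At the adjusted p of 0.01, the same fit on log2 fragments over library background called 1 Gfra2 region lower, 1 Serpinf1 region lower and 1 higher. Over all 47875 regions it called 3425 lower and 3769 higher. For Gfra2, 5 of 31 regions had the 8 peaks the fit needs. The other 95 regions of the 5 loci were not in these fits. A further fit on ranks took regions with a peak in at least 2 lists, with an absent peak as a fold of 0. It called 5 regions of the loci lower and 2 higher, beside 7933 and 2990 of 126504 in all. The lower ones included those 1.0 kb into Endod1 and 43.8 kb from the Plekho2 start site. That 10.5 kb upstream of Endod1 was not called in it. In the fit of regions in all 8 lists the count of calls fell when a library was left out. There a time with 1 library is assumed to vary like the others. Without the first 0 h library, or without either 2 h library, 0 regions were called lower, without the second 0 h library 1, and without any of the other 4 libraries 4. Without each 0 h or 2 h library in turn, the change of mean percentile of the 2 Plekho2 regions inside the gene was between -67.9 and -61.2 points at 0.9 kb and between -74.6 and -63.6 points at 4.7 kb.

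The rising regions lay closer to falling ones than elsewhere. Of 28 gained or rising regions at the 5 loci, 7 (25.0%) had a lost or falling summit within 1 kb, beside 9.6% of the 36806 such regions in all, and the median distance to the nearest was 3573 bases at the loci and 17329 in all. These 7 were 388 bases from it 5.1 kb into Plekho2, 406 bases 39.7 kb upstream of Gfra2, 424 bases 4.2 kb into Gfra2, 519 bases 35.6 kb upstream of Serpinf1, 550 bases 16.4 kb into Endod1, 589 bases 61.1 kb from the Ramp1 start site and 621 bases 44.4 kb from that of Plekho2. Peak density was not matched between the loci and the genome, and the genes were chosen on these libraries, so the distances are a description.

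Sequence took no part in the choice of the genes. Within 100 bases of the summit, lost or falling regions of the 5 loci held 3.03 ± 1.36 core words per 100 bases (SD, n = 30 regions), gained or rising regions 1.72 ± 1.07 (n = 28) and the others 2.20 ± 1.36 (n = 87). The spreads overlap, and regions of 1 locus are not replicates. Over all regions the same 3 means were 2.92 ± 1.23, 1.62 ± 1.00 and 2.02 ± 1.19, so the order at the 5 loci was that of the genome. By locus the lost or falling regions were above the gained or rising ones at Endod1 (3.11 against 1.39), Plekho2 (3.08 against 1.60), Ramp1 (2.40 against 1.35) and Serpinf1 (3.28 against 1.87). At Gfra2 they were nearly equal, at 3.38 over 5 regions against 3.32 over 3 regions.

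The longer core, GGGAA or TTCCC, was found in 17 of 30 lost or falling regions (56.7%) and in 9 of 28 gained or rising ones (32.1%), beside 57.5% and 31.8% of all regions of those kinds and 41.6% of all regions. TGTGGT, the Runx word, on either strand, was in 33.3% and 14.3%, beside 28.0% and 25.7%, and in 26.0% of all regions. The CTCF word was in 1 lost or falling and 2 gained or rising regions, and in 4.40% of all. G and C made up 51.9% of the first set and 51.8% of the second. A word in a window is a description of its letters and not of binding.

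**Figure D5:**
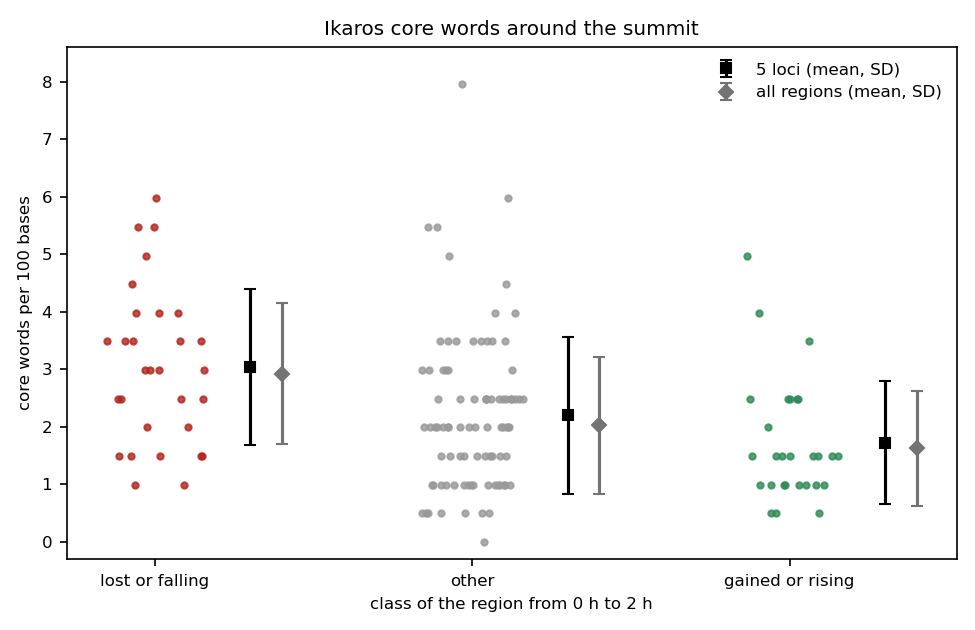
Core words per 100 bases around the summit (vertical axis) for each region of the 5 loci (points) by class, with the mean and SD of the 5 loci (black squares) and of all regions (grey diamonds). The lost or falling regions centre on 3.03 and the gained or rising ones on 1.72, with overlapping spreads.

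The region nearest to each edge of the windows was taken on both sides of it. Inside, these lay 405 to 23764 bases from the edge, and outside 143 to 30688 bases, so not all were close to it. Of the 10 nearest regions inside 1 was changed, and of the 10 nearest outside 4 were changed. Mean percentiles at 0 h reached 55.8 inside and 85.4 outside, and those after 2 h reached 62.9 inside and 94.9 outside.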

How the data were processed

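The authors aligned paired reads with BWA 0.7.17, kept fragments under 120 bases with deepTools 2.3.5 after the Tn5 shift and called peaks with MACS2 2.1.2 on each library alone, with no control. The methods name a human build, whereas the labels name GRCm38, inside whose chromosomes all peaks fell. The deposited lists give each peak's fold over local background (a ratio), its −log10 p-value, its −log10 q-value and its summit. The lowest −log10 q was 1.3. Duplicate handling was as the authors left it, the study's exclusion list was not used here.

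From the deposited fold and −log10 p-value, whole fragments and local background were recovered for every peak (tolerance 0.01 in −log10 p). The most frequent local background of a list stood for depth. Percentiles were mid-ranks of the fold among all peaks of a list. limma 3.58.1 in R 4.3.3 was fitted to normal scores of the ranks of 47875 regions, without a replicate block, since same-numbered libraries did not deviate together (correlations 0.0172 to 0.0403). The ratios are not counts, so the study's count model, DESeq2, could not be fitted. Scripts were tested on simulated data. The result of 1 cell type marker is not reported here.

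The genes, lists and rules were chosen with earlier results of these data known. The named regions were those within 1 kb of a member's start site, the 3 largest falls and 3 largest rises of mean percentile per locus among regions whose 0 h and 2 h libraries did not overlap and that had a peak in both lists of either time, and the strongest region per locus. Those 15.8, 25.6, 7.7, 55.8, 28.8, 35.6, 43.8 and 44.4 kb from a start site lay outside this rule and were named after their values were seen. Alternatives covered the scale, window, merging, filters, fit and single libraries. Reading falling and rising regions by fragments was added after seeing the data. Sequences came from the GRCm38 assembly of RefSeq. The CTCF word was its usual consensus, on either strand.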

Additional observations from a re-analysis of the deposited data

How the results depend on the processing

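Counts of lost and gained regions at 2 h were 14 and 7. A 20 kb window gave 9 and 3, and a 100 kb window raised the gained count to 11. A −log10 q of at least 5, lists of equal length and merged summit windows left both within 1.5 times. Leaving out 1 library gave 18 to 27 lost, 8 to 15 gained, 19 to 27 falling and 25 to 28 rising regions, since fewer libraries must then differ. For 16 falling and 21 rising regions, log2 fragments over library background gave 26 falling. The same centred on each library gave 31 falling and 11 rising, and the percentile of fragments 25 falling. No share over all regions is given for the centred values or the percentile of fragments. All 3 readings were added after seeing the data.

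Called lower and higher by limma were 7 and 3. Ranks among all peaks gave 3 lower, and log2 fragments 13 lower and 5 higher. The same centred gave 16 lower, a trended robust prior 5 higher and an adjusted p of 0.05 13 lower and 7 higher. Over all 47875 regions, ranks among all peaks called 1305 lower, and log2 fragments 3425 lower and 3769 higher. Centred log2 fragments called 4484 lower, and the trended prior 2256 higher. Leaving out 1 library gave 0 to 4 lower and 1 to 3 higher. Over all regions 67.4% of calls were lower in the reported fit, 52.1% by ranks among all peaks and 47.6% by log2 fragments, where the median of all regions shifted by 0.22. The replicate numbers did not pair the libraries, and a fit with the replicate as a block called 4 lower and 3 higher, without the 2 lower regions of Endod1 and that 25.6 kb upstream of Plekho2.

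Of the named regions, 5 changed sign under some alternative. The Gfra2 region 39.7 kb upstream was -3.80 points by −log10 p, -1.09 by log2 fragments and -1.25 after centring. By centred log2 fragments the Plekho2 region 1.1 kb upstream was -0.045 and the Endod1 region 0.4 kb into the gene -0.066, and the latter was -0.29 points without the second 0 h library. Small changes crossed 0 in the Plekho2 region at 44.7 kb (1.40 points without the second 2 h library) and the Endod1 region at the start site (0.053 without the first 0 h library). The cause was not tested. The median summit of 11 to 14 fragments limits the precision of a single region.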

Other observations

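Start sites of other genes inside the windows were not alike. At Ube2f, 70.4 kb from the Ramp1 start site, a region had percentiles of 93.1 and 93.6 before 4-OHT, 98.0 and 97.8 after 30 min, 96.0 and 97.4 after 1 h and 94.4 and 95.1 after 2 h, on 68 and 52 fragments at 0 h and 64 and 58 after 2 h. At Mir22hg, the host gene of a microRNA, 38.9 kb upstream of Serpinf1, a region had 80.4 and 84.3 before 4-OHT and 83.8 and 79.7 after 2 h, which overlapped. At Pif1, a DNA helicase gene 7.1 kb upstream of Plekho2, a region had 81.1 and 80.6 before 4-OHT and 61.6 and 51.4 after 2 h, on 41 and 31 fragments against 25 and 18, so both 2 h libraries were below both at 0 h. These regions were chosen after their values were seen.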
